A study of Arabidopsis thaliana with 6 samples.

Results

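TOO MANY MOUTHS (TMM), ERECTA, ERECTA-LIKE 1 (ERL1) and ERECTA-LIKE 2 (ERL2) encode the cell-surface receptors that space stomata in the Arabidopsis epidermis. MUTE-GFP peaks were taken at these 4 loci from the 3 peak lists of a ChIP-seq study in Arabidopsis thaliana. A peak was taken where its summit lay in a fixed TAIR10 window, 30125000 to 30132500 on chromosome 1 for TMM, 11205000 to 11217000 on chromosome 2 for ERECTA, and 24993500 to 25005000 and 2224500 to 2236500 on chromosome 5 for ERL1 and ERL2. This gave 24 peaks of 30979 in all, with 10 of 12400 in replicate 1, 8 of 10835 in replicate 2 and 6 of 7744 in replicate 3.

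All 6 samples were entire seedlings, 2 days after germination, homozygous for a proMUTE::MUTE-GFP transgene in scrm-D. The transgene places MUTE-GFP under the MUTE promoter, and scrm-D is a dominant allele of SCREAM (SCRM), the bHLH partner of MUTE, in which far more epidermal cells than usual take the stomatal fate. Each of the 3 IP samples (anti-GFP) started from 60 mg of seed and was set by the authors against its own input, so the design holds no contrast between genotypes or treatments. An IP from plants without MUTE-GFP was not analysed here, and background that recurs in every IP was not tested. The IP libraries held 20173429 to 30075453 fragments after removal of duplicates. In whole seedlings a higher occupancy per cell and a larger share of occupied cells cannot be told apart.

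As background, MUTE is a basic helix-loop-helix transcription factor that ends the amplifying divisions of stomatal precursors and drives the switch to the guard mother cell. ERECTA, ERL1 and ERL2 are leucine-rich repeat receptor kinases that perceive secreted EPF peptides and signal through a mitogen-activated protein kinase cascade to restrain stomatal fate. TMM is a receptor-like protein with leucine-rich repeats and no kinase domain that pairs with them and shapes which peptides they perceive.

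Peak heights below are summit pileups, the IP fragments stacked over the summit, per 1000000 kept IP fragments (FPM).

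The 4 loci fell into different patterns of occupancy. TMM had a single tall, wide peak spanning the whole gene. ERL1 and ERL2 each had a pair of strong peaks, with a summit near either end of the gene. ERECTA, the founding member of the family, had only a peak of moderate height near one end. The peaks merged into 10 sites, of which 6 held a peak of every replicate, against 42.2% of all 14106 merged regions of the 3 lists. In 5 sites the fold enrichment over background was at least 3 in every replicate, against 8.25% of all merged regions. Of the 6 shared sites, that of ERECTA was below this level in all 3 libraries. Among regions shared by all replicates the background share at this level was 19.5%.

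**Figure D1:**
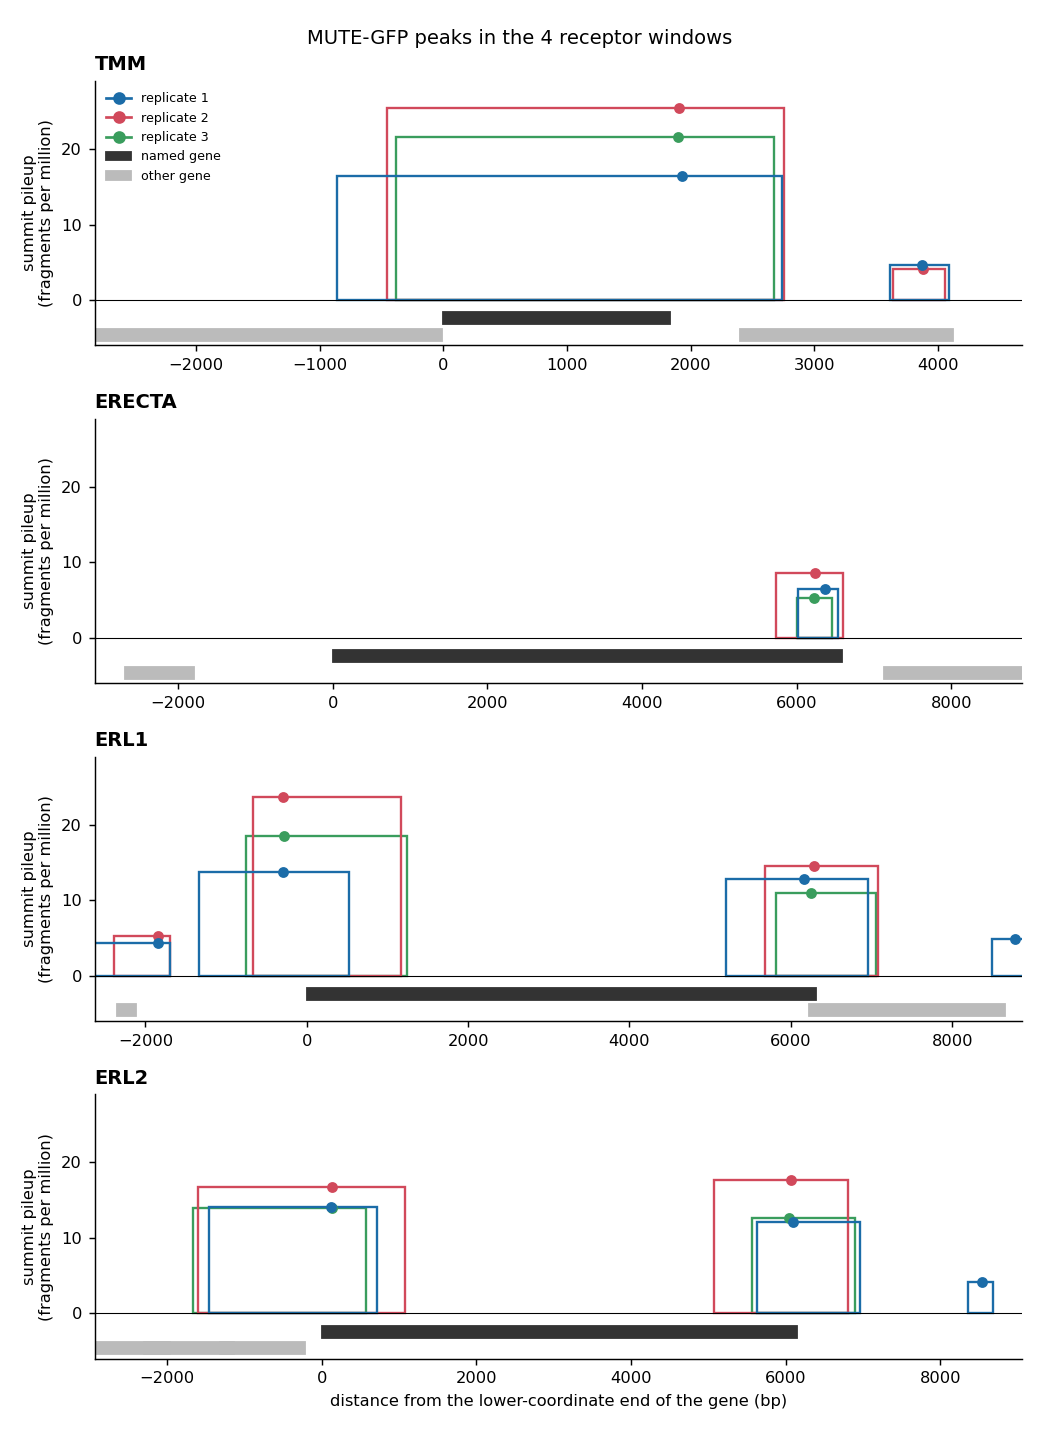
Peaks in the 4 windows, with distance from the lower-coordinate end of each gene in bp on the x axis and summit pileup in FPM on the y axis. Each outline spans a called peak and is drawn to the height of its summit (dot), not as a coverage profile. Below the axis, dark bars are the named gene and grey bars are other genes. TMM is spanned by a single peak, ERL1 and ERL2 carry a peak at either end, and ERECTA carries a low peak at its higher end.

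The TMM peak was the tallest at these loci in each replicate. Its summit lay on chromosome 1 at 30129744 in replicate 1, at 30129724 in replicate 2 and at 30129712 in replicate 3. These positions were 95, 75 and 63 bp beyond the higher-coordinate end of TMM, in the space before the next gene, CBSX4, which began 474 to 506 bp further on. The summits spread over 32 bp, compared with a median spread of 88 bp across the 4873 regions with exactly 1 peak in each replicate. At the lower and higher ends the spread was 14 and 119 bp for ERL1 and 18 and 51 bp for ERL2. For ERECTA it was 141 bp.

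Summit height at TMM was 495, 513 and 473 stacked fragments in replicates 1, 2 and 3. Scaled by kept IP fragments this was 16.5, 25.4 and 21.6 FPM, or 21.2 ± 4.50 (SD, n = 3). Replicate 1, the deepest library, was the lowest after scaling, although the unscaled counts were close to each other. The part of depth, and of keeping 1 fragment per duplicate position, in this order was not tested. The authors' fold enrichment at this summit was 6.76, 10.3 and 8.85. The background behind it was 72.4, 48.9 and 52.6 fragments, below the list medians of 78.6, 54.05 and 57.3.

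The TMM peak was also wide, with 3594, 3207 and 3054 bp in replicates 1, 2 and 3. It covered the whole gene, whose annotated span is 1831 bp, in every replicate. Of all peaks in the same list, 97.3%, 95.7% and 96.4% were narrower. By pileup, 99.3%, 99.5% and 99.1% of peaks were lower. The peak reached over the boundary of the gene on both sides, so it also touched the ends of the neighbouring genes SUS2 and CBSX4.

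ERL1 had shared sites at both ends of the gene. The site at the lower-coordinate end had its summit on chromosome 5 at 24995834 in replicates 1 and 2 and at 24995848 in replicate 3, which is 281 to 295 bp outside the gene. The nearest other gene, a non-coding RNA gene, was 1823 to 1837 bp away. Summit pileup there was 13.7, 23.6 and 18.5 FPM in replicates 1, 2 and 3 (18.6 ± 4.97, SD, n = 3). Fold enrichment was 4.87, 8.15 and 6.34. The peak was 1864, 1839 and 2002 bp wide, and 89.5%, 87.0% and 90.6% of peaks in the same list were narrower. The replicates took the same order as at TMM, with replicate 1 lowest and replicate 2 highest. The median pileups of the whole lists, 4.79, 5.55 and 5.25 FPM, took this order too, but each list holds a different set of peaks. Over the regions shared by all replicates the medians were 6.15, 7.39 and 5.71 FPM, with replicate 3 lowest. Relative to these medians TMM stood at 2.68, 3.44 and 3.78 times and this ERL1 site at 2.22, 3.19 and 3.24 times. The source of this order was not tested.

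The site at the higher-coordinate end of ERL1 had summits at 25002293, 25002412 and 25002374, all inside the gene and 146, 27 and 65 bp from its end. There ERL1 overlaps the neighbouring gene AT5G62240. The summits of replicates 2 and 3 lay in both genes and that of replicate 1 was 65 bp short of AT5G62240, so this site cannot be given to ERL1 alone. Pileup was 12.8, 14.5 and 10.96 FPM (12.7 ± 1.76, SD, n = 3), with fold enrichments of 4.95, 5.51 and 4.07. The peak was 1749, 1405 and 1240 bp wide, and 88.2%, 79.7% and 78.2% of peaks in the same list were narrower.

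The lower-end site of ERL1 was 1.07, 1.63 and 1.69 times as high as the higher-end site in replicates 1, 2 and 3. It was the higher of the 2 in every replicate. This is the most that 3 replicates can show, since the exact two-sided sign-flip test cannot go below its value here of p = 0.25 (n = 3). In replicate 1 the 95% Poisson intervals of the 2 pileups, 372 to 453 and 347 to 425 fragments, overlapped.

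ERL2 also had shared sites at both ends of the gene. At the lower-coordinate end the summits stood at 2227551, 2227568 and 2227569 on chromosome 5, a spread of 18 bp, and 112 to 130 bp inside the gene. The nearest other gene, AT5G01345, was 328 to 346 bp away. In every replicate the called peak spanned AT5G01345 and reached into AT5G07175, so the peak does not belong to ERL2 alone. Pileup there was 14.1, 16.8 and 14.02 FPM in replicates 1, 2 and 3, and fold enrichment 5.52, 6.48 and 5.67. This peak was 2171, 2669 and 2238 bp wide, and 92.0%, 93.5% and 92.6% of peaks in the same list were narrower. At the higher-coordinate end the summits stood at 2233527, 2233505 and 2233476, which is 60, 82 and 111 bp inside the gene and 3947 to 3998 bp from the next gene, ATS3. Pileup was 12.1, 17.6 and 12.6 FPM there, and fold enrichment 4.60, 6.69 and 4.31. Its width was 1336, 1735 and 1332 bp, with 81.5%, 85.7% and 80.6% of peaks narrower. The lower-end site was the higher of the 2 in replicates 1 and 3 and the lower in replicate 2, with ratios of 1.17, 1.11 and 0.952 (exact two-sided sign-flip test, p = 0.5, n = 3). The order of the 2 ends of ERL2 was therefore not resolved.

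Summit spacing between the 2 ends was 6459, 6578 and 6526 bp at ERL1 and 5976, 5937 and 5907 bp at ERL2. The stretch between the paired peaks, 4509 to 4674 bp at ERL1 and 3995 to 4997 bp at ERL2, held no called peak in any replicate. A summit within 500 bp of each end in every replicate was found at 2 of the 4 loci. The same was true of 0.911% of all 27444 protein-coding genes and of 1.77% of the 1639 that are at least 5 kb long, a class that includes ERECTA as well as ERL1 and ERL2. The 500 bp limit was chosen after the arrangement had been seen. At least 2 regions shared by all replicates lay in the ERL1 and ERL2 windows and in 14.6% of consecutive 12 kb tiles of chromosomes 1 to 5. The comparison is rough, since the windows were set around genes and tile limits can split a pair of sites. The TMM and ERL1 windows are also shorter than a tile.

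At ERECTA the summits lay at 11214450, 11214311 and 11214309 on chromosome 2, inside the gene and 212, 351 and 353 bp from its higher-coordinate end. The next gene, AT2G26340, was 758 to 899 bp away. Pileup was 6.45, 8.58 and 5.30 FPM in replicates 1, 2 and 3 (6.77 ± 1.66, SD, n = 3). The 95% Poisson intervals were 5.57 to 7.42, 7.35 to 9.95 and 4.38 to 6.35 FPM, so on this scale replicates 2 and 3 differed by more than counting error. The median pileup of regions shared by all replicates was also higher in replicate 2 than in replicate 3, at 7.39 and 5.71 FPM. The intervals do not allow for that difference between libraries. Fold enrichment was 2.12, 2.94 and 1.81.

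The ERECTA peak was 511, 864 and 462 bp wide, and 34.1%, 61.3% and 26.4% of peaks in the same list were narrower. By pileup it stood near the middle or in the upper part of the lists, with 77.0%, 78.7% and 50.3% of peaks lower in replicates 1, 2 and 3. Against the median pileup of the regions shared by all replicates it was 1.05, 1.16 and 0.928 times as high. The background behind it was 90.9, 58.1 and 63.6 fragments, above the list medians of 78.6, 54.05 and 57.3 in every replicate. No peak was called at the lower-coordinate end of ERECTA in any replicate, which at this depth and cutoff does not show that the site was unoccupied.

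**Figure D2:**
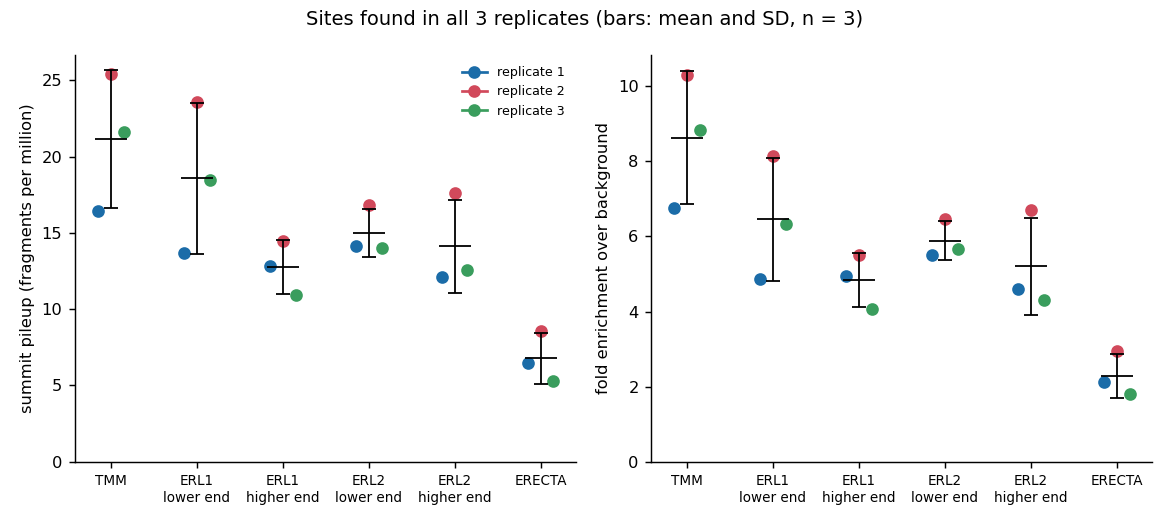
Summit pileup in FPM (left) and fold enrichment over background (right) of the 6 sites found in every replicate. Dots are replicates, and bars give the mean and SD (n = 3). TMM is highest and ERECTA lowest in both panels, and all 3 ERECTA values lie below those of the other 5 sites.

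The loci were then compared by the highest peak of each, within each library. TMM ranked first and ERECTA last in every replicate. ERL2 ranked ahead of ERL1 in replicate 1, and ERL1 ahead of ERL2 in replicates 2 and 3. TMM exceeded ERECTA 2.55-, 2.97- and 4.08-fold in replicates 1, 2 and 3, a mean log2 difference of 1.65 ± 0.35 (SD, n = 3). The ERECTA pileup was 0.472, 0.363 and 0.286 times that of ERL1 and 0.456, 0.486 and 0.378 times that of ERL2. In log2 units ERECTA lay below ERL1 by a mean difference of -1.45 ± 0.36 and below ERL2 by -1.19 ± 0.19 (SD, n = 3).

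Among the 3 strong loci the differences were smaller. TMM exceeded ERL1 by 1.20-, 1.08- and 1.17-fold, a mean log2 difference of 0.20 ± 0.083 (SD, n = 3), and ERL2 by 1.16-, 1.44- and 1.54-fold (0.46 ± 0.21). Between TMM and ERL1 the 95% Poisson intervals overlapped in every replicate. In fragments they were 452 to 541 and 372 to 453, 470 to 559 and 434 to 521, and 431 to 518 and 367 to 446. Between TMM and ERL2 the intervals of the highest peaks overlapped in replicate 1 only. ERL1 and ERL2 differed by 0.26 ± 0.26 on the log2 scale, which is within the spread between replicates. In replicate 1 their pileups of 411 (95% Poisson interval 372 to 453) and 425 (386 to 467) overlapped in counting error. The exact two-sided sign-flip test gave p = 0.25 for the other 5 pairs and p = 0.5 for ERL1 against ERL2, and 0.3 and 0.5 after Benjamini-Hochberg adjustment over the 6 pairs (n = 3). With 3 replicates it cannot go below 0.25, so none of these differences could pass a threshold of 0.05. The direction was the same in 3 of 3 replicates for those other 5 pairs.

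The lead of TMM held for single summits only. Summed over all peaks in the window, ERL1 reached 35.7, 43.3 and 29.4 FPM, ERL2 30.4, 34.5 and 26.6, and TMM 21.05, 29.5 and 21.6, in replicates 1, 2 and 3. Both ERL loci were then above TMM in every replicate. Such sums move with how many peaks were called. The peaks covered 5441, 3939 and 3242 bp at ERL1, 3832, 4404 and 3570 bp at ERL2, and 4071, 3628 and 3054 bp at TMM. ERECTA had 1 peak per replicate and so stayed at 6.45, 8.58 and 5.30 FPM.

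**Figure D3:**
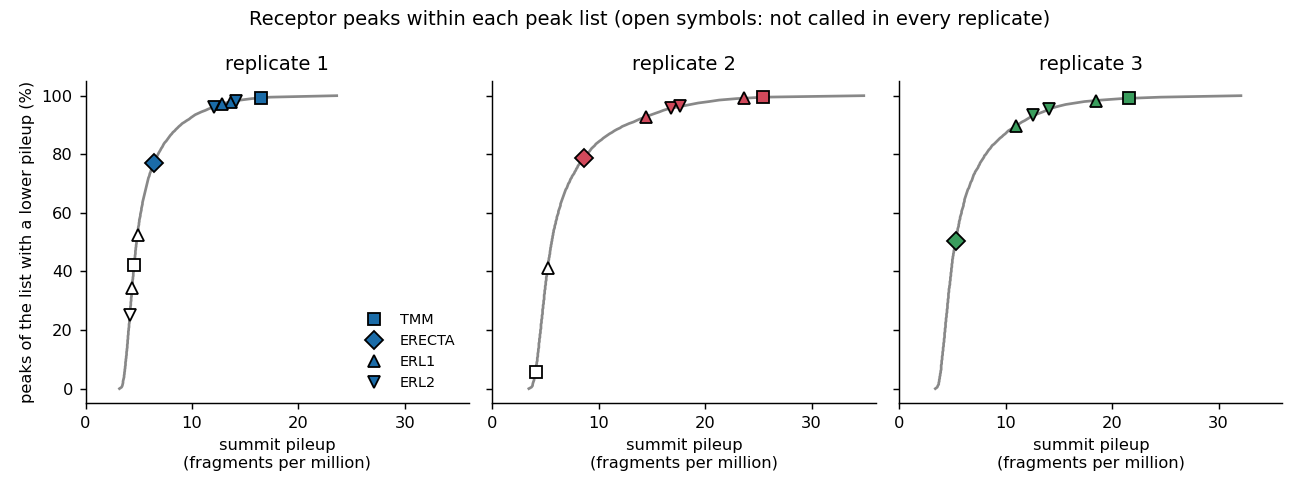
Receptor peaks within the whole peak list of each replicate, with summit pileup in FPM on the x axis and the percentage of peaks in the list with a lower pileup on the y axis. Grey lines are all peaks of chromosomes 1 to 5, filled symbols are sites found in every replicate and open symbols are sites missing from at least 1 list. The shared TMM site lies above at least 99.1% of peaks in each list, the paired ERL1 and ERL2 sites above at least 89.6%, and ERECTA lies between 50.3% and 78.7%.

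The other 4 sites were weak. A site 2037 and 2046 bp beyond the higher end of TMM, inside CBSX4, was called in replicates 1 and 2 at 4.59 and 4.06 FPM. A site 1839 and 1847 bp below ERL1 was called in replicates 1 and 2 at 4.39 and 5.20 FPM. A site 2465 bp above ERL1 and a site 2386 bp above ERL2 were called in replicate 1 only, at 4.89 and 4.19 FPM. None of the 4 was called in replicate 3, the shortest list. Their fold enrichments lay between 1.58 and 1.91. The smallest pileups in the lists were 3.19, 3.42 and 3.38 FPM.

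The peaks nearest to the limits of the windows were as follows. The peak inside a window that came closest to its limit was the weak ERL1 site of replicate 1, 96 bp inside. The closest summits left out lay 702 and 763 bp above the ERL2 window in replicates 2 and 1, at 5.30 and 4.85 FPM, and 930 and 945 bp above the TMM window in replicates 3 and 1, at 4.47 and 3.76 FPM. All 4 loci also had a summit within 1 kb of the gene in every replicate, which held for 24.9% of protein-coding genes.

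The receptors act with secreted ligands, co-receptors and an intracellular cascade, and the same lists were read for those genes, for polarity genes and for the bHLH genes of the lineage. Of 34 listed genes 29 were matched by symbol or synonym, and the rest were the ligands EPFL1, EPFL2, EPFL3, EPFL7 and EPFL8. A summit within 3 kb of the gene in every replicate was found for 18 of the 29 (62.1%), against 40.3% of all protein-coding genes. A fold enrichment of at least 3 in every replicate was reached by 11 of the 29, against 8.53% of all. All 7 polarity and bHLH genes had a summit within 3 kb in every replicate. The 2 polarity genes and 4 of the 5 bHLH genes also reached that fold enrichment. Among the other 22 genes, 11 (50%) had a summit in every replicate and 5 reached that fold enrichment. These are counts over a list chosen with earlier results known, and they are given as a description.

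Of 11 listed EPF ligands only 6 were matched. Among these 6, 4 had a summit within 3 kb in every replicate, against 40.3% of all protein-coding genes. Within 1 kb it was 3 of the 6, against 24.9%. A fold enrichment of at least 3 in every replicate was reached by 2 of the 6, against 8.53%. EPF2, the peptide that restricts entry into the stomatal lineage, reached 17.1, 25.5 and 21.2 FPM, beside TMM at 16.5, 25.4 and 21.6. EPF1, the peptide that enforces spacing and acts through ERL1, reached 17.5, 22.3 and 17.2 FPM. EPFL6 (CHALLAH), a relative that acts in stem growth, had 3.96, 4.96 and 4.02 FPM at sites on average 1725 bp from the gene and nearer to SIP4, and EPFL5 had 4.89, 5.80 and 4.84 FPM. The strongest EPFL5 and EPFL6 summits lay 1623 and 1024 bp apart between replicates, so the strongest summits did not coincide. EPFL9 (STOMAGEN), the peptide that competes with EPF1 and EPF2 and promotes stomata, had a summit in replicate 1 alone, and EPFL4 in no list.

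SDD1, a subtilisin-like protease that limits stomatal density, reached 16.4, 25.2 and 16.6 FPM. Of the 4 SERK co-receptors, which form complexes with ERECTA-family kinases, 2 had a summit in every replicate, against 40.3% of all protein-coding genes. BAK1 reached 13.03, 18.5 and 13.7 FPM, at a site 880 bp from BAK1 and nearer to AT4G33440. SERK2 reached 7.88, 8.33 and 5.80 FPM, beside 6.45, 8.58 and 5.30 at ERECTA. SERK1 was called in 2 replicates and SERK4 in 1.

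In the kinase cascade downstream of the receptors, 3 of 7 genes had a summit in every replicate and 0 of 7 reached a fold enrichment of 3 in all of them. The shares over all protein-coding genes were 40.3% and 8.53%, so neither count stands apart from them. MKK5 had 5.39, 9.96 and 8.08 FPM, with the summit nearer to AT3G21215. MKK9 had 4.85, 6.34 and 5.43 FPM. MPK6 had 6.65, 7.73 and 5.16 FPM at a site 2600 bp from the gene and nearer to AT2G43795. Within 1 kb of MPK6 a summit was called in 2 replicates only. MKK4 and MPK3 were called in 2 replicates, and YDA and MKK7 in 1.

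Of the 4 phosphatases of the BSU1 family, BSU1 alone had a summit in every replicate, at 11.9, 20.6 and 15.1 FPM, but 2634 bp from the gene and nearer to AT1G03440. The polarity genes BASL and POLAR both had one. BASL, which marks the cell side away from the division, reached 16.7, 22.5 and 18.9 FPM, and POLAR, which localizes with it, 10.8, 16.01 and 13.5.

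All 5 bHLH genes of the lineage had a summit within 3 kb in every replicate. SPCH, FAMA, SCRM and SCRM2 had means of 19.7, 13.3, 22.4 and 22.1 FPM and fold enrichments of at least 3 throughout. The highest summits of SPCH and FAMA lay on average 2124 and 1059 bp from the gene. Within 1 kb a summit was called in 1 replicate for SPCH and in 2 for FAMA, and 3 of the 5 genes had one in every replicate. MUTE had the highest mean pileup, 26.7 FPM, with fold enrichments of 2.49, 3.24 and 3.01. The plants also carry the proMUTE::MUTE-GFP transgene, and its part in these values was not tested.

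**Figure D4:**
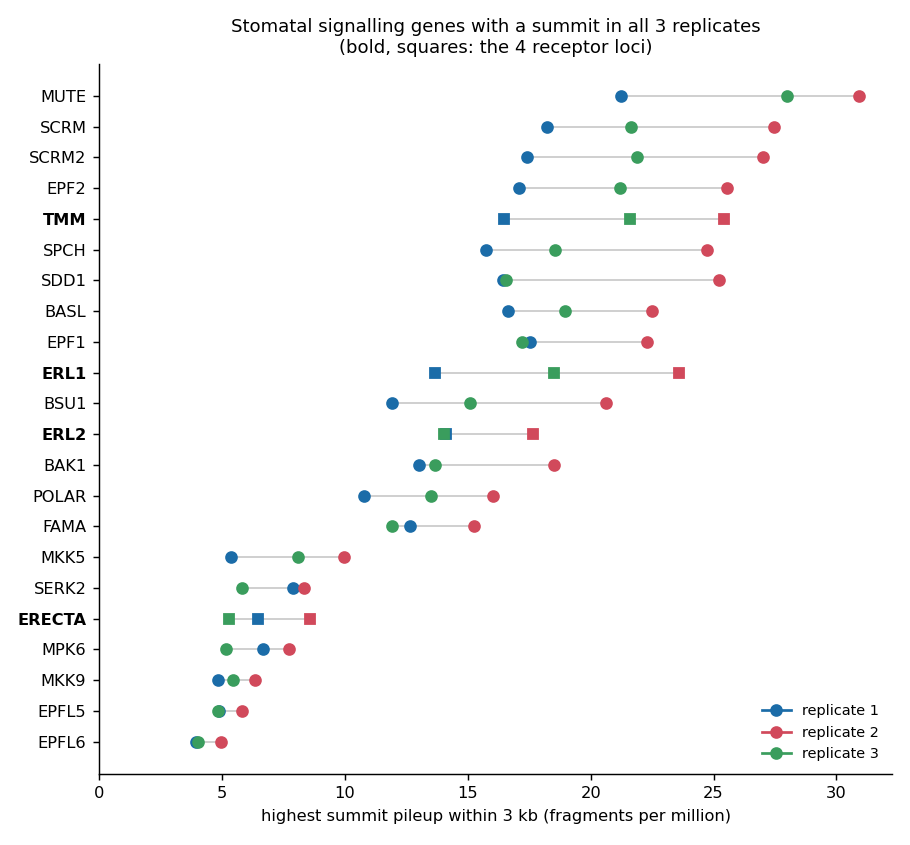
Highest summit pileup in FPM within 3 kb of each stomatal signalling gene that had a summit in every replicate, with the 4 receptor loci as squares with bold names. Dots and squares are replicates, and genes are ordered by their mean. TMM stands between EPF2 and SPCH, ERL1 and ERL2 stand further down, and ERECTA stands among SERK2, MKK5 and MPK6.

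In this order 3 of the 18 genes (MUTE, SCRM and SCRM2) were above TMM in every replicate, 12 were below it in every replicate and 3 were above it in some (EPF1, EPF2 and BASL). Against ERECTA, 12 of the 18 were higher in every replicate and 2 in none.

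Regions closest to each locus in level were sought among the other 5951 regions shared by all replicates, by the Euclidean distance of log2 FPM over the 3 libraries. The 2 closest to TMM were the region 727 bp from EPF2 (distance 0.061) and a region 550 bp from ROPGAP3, with 17.2, 25.2 and 21.3 FPM (0.064). The 2 closest to ERL1 lay in ABCG25, a transporter of abscisic acid, with 13.5, 23.2 and 18.2 FPM (0.041), and in AT1G33930 (0.047). For ERL2 they lay in AT3G49220 (0.032) and AT3G59680 (0.046), and for ERECTA 453 bp from ENDO3 (0.046) and in AAE3 (0.061). A small distance here describes height in 3 libraries and nothing else.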

How the data were processed

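Entire seedlings were assayed by ChIP-seq with an antibody against GFP. Peak calling by the authors used MACS 2.1.0.20140616, per the file headers, with each IP library paired with its same-numbered input, a q-value cutoff of 0.05 and 1 fragment kept per duplicate position. Bowtie2 and the build TAIR10 are named in the submitters' processing notes. Pileup, as deposited, is a signal that counts IP fragments over the summit. The deposited fold enrichment is the ratio of that pileup to the local background, each plus 1, from which the background was back-computed. The deposited −log10 p and −log10 q had lost their headings and were told apart by column order.

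Pileups were scaled to 1000000 kept IP fragments (FPM), with totals from the headers. The lists of chromosomes 1 to 5 were joined, and peaks that overlapped or touched formed 1 region. Differences between loci were taken within each library and tested by an exact two-sided sign-flip permutation over 3 replicates, adjusted by Benjamini-Hochberg over 6 pairs. The labels do not say whether replicates were grown separately, so p-values measure the spread between these samples. Intervals are 95% exact Poisson intervals and cover counting error only. Genes came from a RefSeq table of TAIR10.1, taken to carry the TAIR10 sequence on chromosomes 1 to 5. It gives no strand, so gene ends are called lower and higher by coordinate, the planned window upstream of gene starts became 3 kb (alternative, 1 kb) on both sides, and regions similar in level were named by the nearest gene span.

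The members and gene lists were chosen with earlier results of these data known. All 4 loci are named with every peak, as are pathway genes with a summit in each replicate and the 2 regions nearest in level to each locus. Merging, gene assignment and the permutation were tested on simulated data. Alternatives covered scaling, peak measure, thresholds, gene window and leaving out each replicate. E-box and identity counts were not run, since no sequence was used here. Python 3.11.15, numpy 2.4.6, pandas 2.3.3, scipy 1.17.1 and matplotlib 3.10.9 were used.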

Additional observations from a re-analysis of the deposited data

How the results depend on the processing

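Leaving out each replicate in turn kept the direction of all 6 pair differences. The mean log2 difference ranged from 1.46 to 1.80 for TMM over ERECTA, from 0.17 to 0.25 for TMM over ERL1, from 0.37 to 0.58 for TMM over ERL2, from -1.63 to -1.27 for ERECTA against ERL1, from -1.27 to -1.09 for ERECTA against ERL2 and from 0.18 to 0.41 for ERL1 over ERL2. Fold enrichment in place of pileup kept all 6 directions, with 0.089 for ERL1 over ERL2, and the median pileup of shared regions as a scale cannot move a difference within a library. Summing all peaks of a locus reversed TMM against ERL1 (-0.59) and against ERL2 (-0.35). Summing only the sites of all replicates, chosen after the data were examined, gave -0.57 and -0.47. In replicates 1, 2 and 3 the sums over all peaks held 2, 2 and 1 peaks at TMM, 4, 3 and 2 at ERL1 and 3, 2 and 2 at ERL2. The sums over sites of all replicates held 1 site at TMM and 2 each at ERL1 and ERL2.

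The mean log2 level of TMM, ERECTA, ERL1 and ERL2 was 4.38, 2.73, 4.18 and 3.92. It moved to 3.62, 1.97, 3.42 and 3.16 per 1000000 total fragments and to 1.71, 0.059, 1.51 and 1.25 relative to the median shared region, where the unit itself changes. Without 1 replicate it ranged from 4.24 to 4.55, 2.55 to 2.89, 3.99 to 4.38 and 3.81 to 3.98. Regions shared by all replicates fell from 5957 to 3125 at −log10 q of at least 10 and to 1164 at a fold enrichment of at least 3. In both settings 3 of the 4 loci kept one, and ERECTA did not. With summits within 150 bp there were 4059, and without 1 replicate 6372 to 8466. The pathway count fell from 18 to 11 at a fold enrichment of at least 3, was 13 within 1 kb and ranged from 18 to 21 without 1 replicate.

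No paired analysis was possible because the groups that share replicate numbers are IP and input, and values of the input alone were not used here. Differences between loci were all taken within a library. The exact sign-flip test over 3 replicates cannot pass 0.05, so its p-values say nothing about stability. Weak sites missing from a list were not called at that depth, which does not show absence. The planned E-box windows were not run.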
